A study of Mus musculus with 9 samples.

Results

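The mitotic kinases, checkpoint proteins and regulators of the anaphase-promoting complex (APC/C) were followed through NRG1 treatment of prostate cancer cells. The genes were taken by symbol: Aurka, Aurkb, Plk1, Ttk, Bub1, Bub1b, Mad2l1, Fbxo5, Cdc20 and Foxm1. All 10 were found among the 15552 genes of the count table, and all 10 were among the 11373 genes with enough counts to be tested. To compare the signaling of HER3 ligands, the study treated MyC-CaP cells with recombinant NRG1, which binds HER3, and sequenced their RNA by RNA-Seq. MyC-CaP is a single mouse cell line from a prostate tumor driven by a MYC transgene under the probasin promoter, which is active in prostate epithelium. Before NRG1 was added at 15 ng/mL, the cells were kept for 6 to 12 hours in medium with neither serum nor calcium, and RNA was taken 0, 12 and 24 hours after NRG1, with 3 libraries per time point. All 9 libraries carry the label NRG1-treated, the 0 h libraries included. Starved cells that received no NRG1 for 12 or 24 h were not analysed here, so hours in starvation medium and hours with NRG1 cannot be told apart.

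Cells enter mitosis under the control of kinases whose transcripts accumulate late in the cell cycle. Aurora A matures the centrosomes, Aurora B corrects faulty attachments of chromosomes to the spindle, and PLK1 acts from mitotic entry to cytokinesis. At unattached kinetochores, TTK (also known as MPS1) and BUB1 start the spindle assembly checkpoint, in which MAD2 and BUBR1 (the products of Mad2l1 and Bub1b) hold CDC20 and so keep the APC/C, the ubiquitin ligase that sets off anaphase, inactive. EMI1, the product of Fbxo5, is an inhibitor of the APC/C in S and G2 phase. FOXM1 is a transcription factor that drives many genes of G2 phase and mitosis together with B-MYB and the MuvB complex.

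Many such genes are controlled through a promoter element called the cell cycle genes homology region (CHR), with the letters TTTGAA, often found with CCAAT boxes upstream. Promoters from RefSeq, running from 250 bases before to 50 bases after the annotated start on GRCm38.p6, were matched for 8 of the 10 genes, all except Aurkb and Foxm1. Read on both strands, TTTGAA was present in 6 of the 8, against 17.9% of 32851 mouse promoters. The stretches below are shown because they hold that element, or the variant TTCGAA in Bub1, near the start. Each is 30 bases, written 5′ to 3′ along the strand of the gene, with the element in capitals. In Ttk and Fbxo5 the element lies on the opposite strand and therefore reads TTCAAA.
Aurka: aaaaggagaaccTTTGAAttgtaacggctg
Plk1: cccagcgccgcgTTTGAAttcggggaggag
Ttk: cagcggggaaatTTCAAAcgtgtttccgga
Bub1: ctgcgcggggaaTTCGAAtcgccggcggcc
Bub1b: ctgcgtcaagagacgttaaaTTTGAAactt
Fbxo5: ttgggcaccaaaTTCAAAgattttaaaagt
Cdc20: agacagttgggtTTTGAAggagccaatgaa
On GRCm38.p6 these lie at chr2:172370521-172370550 (minus strand) for Aurka, chr7:122159453-122159482 (plus strand) for Plk1, chr9:83834684-83834713 (plus strand) for Ttk, chr2:127831828-127831857 (minus strand) for Bub1, chr2:118598231-118598260 (plus strand) for Bub1b, chr10:5805445-5805474 (minus strand) for Fbxo5 and chr4:118437344-118437373 (minus strand) for Cdc20. Counting the first transcribed base of the RefSeq start as position 1, the element began at position 33 in Aurka, 31 in Plk1, 8 in Ttk, 15 in Bub1, 41 in Bub1b and 4 in Fbxo5, and at position -18 in Cdc20. All 6 matches to TTTGAA thus fell in the last 100 bases of the window, where 4.94% of all promoters held one. That narrower window was chosen after the matches were seen. The variant TTCGAA was present in Bub1 and Bub1b, 2 of 8, against 1.56% of all promoters.

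CCAAT, also read on both strands, was found in 7 of the 8 promoters, against 37.4% of all promoters. In the last 100 bases it was found in 6 of 8, against 13.6%. The promoter of Mad2l1 held none of the 3 sets of letters in this window. The 100 bases before the RefSeq start of Cdc20 and Fbxo5 are shown because these genes moved least and most in the comparisons against 0 h. CCAAT or its reverse complement ATTGG and the TTTGAA of Cdc20 are in capitals.
Cdc20: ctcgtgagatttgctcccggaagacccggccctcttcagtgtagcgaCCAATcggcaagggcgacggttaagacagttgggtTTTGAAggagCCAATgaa
Fbxo5: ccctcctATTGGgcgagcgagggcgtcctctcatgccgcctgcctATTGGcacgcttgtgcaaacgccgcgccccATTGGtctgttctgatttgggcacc
They lie at chr4:118437344-118437443 (minus strand) and chr10:5805466-5805565 (minus strand). RefSeq starts differ from the gene ends in the count table. There, Fbxo5 reaches base 5805600, so all of its stretch lies inside the gene as counted. Cdc20 had CCAAT at positions -53 and -8, and Fbxo5 had ATTGG at -93, -55 and -25. A match of letters is a description of the sequence, and binding was not measured in these data.

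The libraries held 28467089 to 37873433 counts at 0 h, 30920755 to 36177889 after 12 hours and 30299344 to 39239760 after 24 hours. Replicates were compared before averaging. Chi-square per degree of freedom between libraries of the same time point was 3.41 to 10.5, so all pairs differed by more than counting noise. The values of 10.3 and 10.5 both involved 12 h replicate 3. The labels call the replicates biological and describe triplicate wells, so p-values measure the spread between these wells of a single line. Of the epithelial markers, Krt8 averaged 18.2, 22.3 and 23.1 CPM (counts scaled to library size) at 0, 12 and 24 h, while Epcam reached at most 3 counts and Cdh1 at most 4 counts in any library, so these defining markers of epithelium were nearly absent from cells labelled as epithelial-like. The part of the shift in Krt8 in later results was not tested. Summed markers of leukocytes lay between 0.39 and 1.05 CPM over the 9 libraries and those of endothelium between 0 and 0.299 CPM. The summed fibroblast list lay between 15.3 and 18 CPM, nearly all of it Pdgfra, with Col1a1 at no more than 12 counts and Col1a2 at no more than 1. In bulk RNA, a change in the share of cells of a kind and a change in RNA per cell cannot be told apart.

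All 10 mitotic regulators rose at 12 h and all 10 rose at 24 h relative to 0 h, by 1.21-fold to 1.75-fold after 12 hours and by 1.30-fold to 1.89-fold after 24 hours. Together they took 0.0348% to 0.0409% of the counts at 0 h, 0.0498% to 0.0561% at 12 h and 0.0547% to 0.0571% at 24 h, so the share in every later library lay above every 0 h library. The share of counts from mitochondrial genes separated the same libraries, with 1.41% to 1.5% at 0 h, 1.12% to 1.18% at 12 h and 1.21% to 1.36% at 24 h, and its part in the rise was not tested. Fbxo5 moved most and Cdc20 least at both times. A gene passed when its Benjamini-Hochberg adjusted p, from edgeR's quasi-likelihood test over all 11373 genes, was at most 0.05, and was called when its fold change was also at least 1.5. In the 12 h comparison 13.6% of all genes passed in the upward direction, 11.9% passed downward and 1.34% were called higher. In the 24 h comparison 9.67% passed upward, 7.76% downward and 1.68% were called higher. Of the regulators, 2 of 10 were called at 12 h (Aurkb and Fbxo5) and 5 of 10 at 24 h (Aurkb, Ttk, Bub1, Fbxo5 and Foxm1). The median log2 fold change of the 10 was 0.48 at 12 h and 0.59 at 24 h, against medians over all genes of -0.0028 and -0.0065. Both comparisons use the same 3 libraries at 0 h, so they are not independent of each other.

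**Figure D1:**
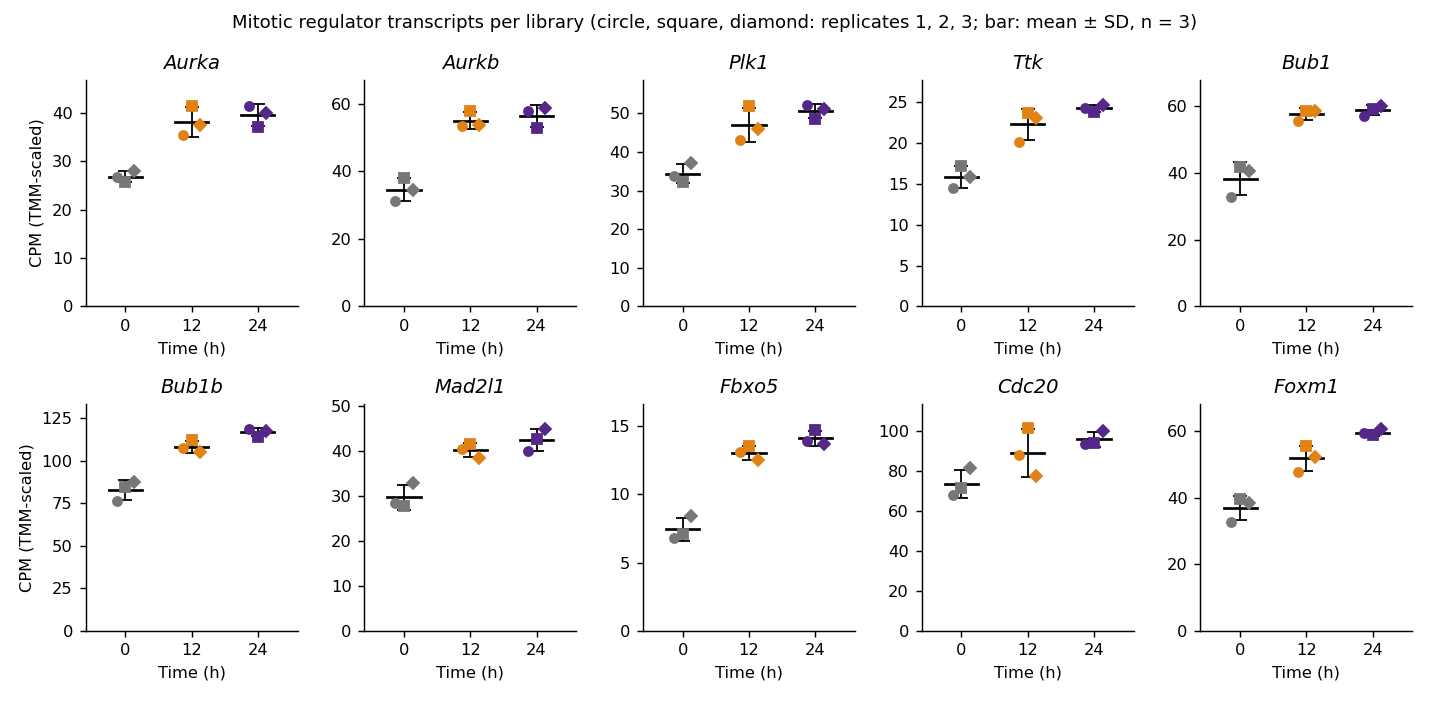
Counts scaled to library size (CPM, scaled by TMM; y axis, starting at 0) of the 10 genes against hours after NRG1 (x axis), with circles, squares and diamonds for replicates 1, 2 and 3 and bars for the mean ± SD of 3 libraries. Every 24 h point lies above every 0 h point in all 10 panels, and at 12 h this holds for 9 of 10, the exception being Cdc20, whose 12 h replicate 3 (77.8 CPM) lies below 0 h replicate 3 (81.4 CPM).

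The Aurora kinases were examined first. Aurka (ENSMUSG00000027496.15, GRCm38 chromosome 2, 172356190 to 172370535, minus strand) stood at 26.6, 25.7 and 27.9 CPM in replicates 1, 2 and 3 at 0 h, at 35.4, 41.4 and 37.4 CPM at 12 h, and at 41.5, 37.1 and 40.0 CPM at 24 h. Every 12 and 24 h library was above every 0 h library, while the 12 and 24 h libraries overlapped. The gene rose 1.42-fold after 12 hours (log2 change 0.51, SE 0.0641, edgeR adjusted p of 2.51e-05) and 1.48-fold after 24 hours (0.56, SE 0.0637, edgeR adjusted p of 1.06e-05). Aurkb (ENSMUSG00000020897.12, chromosome 11, 69045647 to 69051664, plus strand) stood at 31.2, 37.9 and 34.5 CPM at 0 h, 53.3, 57.8 and 53.8 CPM at 12 h, and 57.7, 52.7 and 58.6 CPM at 24 h. The 0 h libraries were again separate from all later ones. Aurkb rose 1.59-fold after 12 hours (log2 change 0.66, SE 0.0641, edgeR adjusted p of 2.33e-06) and 1.63-fold after 24 hours (0.70, SE 0.0638, edgeR adjusted p of 1.24e-06). RefSeq lists a pseudogene of Aurkb, and how reads shared with it were counted was not stated.

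Plk1 (ENSMUSG00000030867.7, chromosome 7, 122159439 to 122169873, plus strand), the Polo-like kinase of mitotic entry, stood at 33.7, 32.3 and 37.2 CPM at 0 h, 43.2, 51.9 and 45.8 CPM at 12 h, and 52.1, 48.7 and 51.0 CPM at 24 h. It rose 1.36-fold after 12 hours (log2 change 0.45, SE 0.0664, edgeR adjusted p of 0.000114) and 1.47-fold after 24 hours (0.56, SE 0.0659, edgeR adjusted p of 1.63e-05). The spread was widest at 12 h, where replicate 2 alone was in the range of the 24 h libraries. Of its exonic bases, 7.09% overlap a gene on the opposite strand, Gm44985, and whether the counting used the strand was not stated.

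Among the kinases that start the checkpoint, Ttk (ENSMUSG00000038379.15, chromosome 9, 83834689 to 83872389, plus strand) stood at 14.5, 17.2 and 15.9 CPM at 0 h, 20.1, 23.7 and 23.0 CPM at 12 h, and 24.3, 23.8 and 24.7 CPM at 24 h. It rose 1.398-fold after 12 hours (log2 change 0.48, SE 0.0757, edgeR adjusted p of 0.000188) and 1.53-fold after 24 hours (0.61, SE 0.0748, edgeR adjusted p of 2.39e-05). All 3 levels at 24 h were above all 3 at 12 h, though the nearest libraries almost met. Bub1 (ENSMUSG00000027379.13, chromosome 2, 127801122 to 127831865, minus strand) stood at 32.7, 41.7 and 40.4 CPM at 0 h, 55.7, 58.6 and 58.6 CPM at 12 h, and 57.1, 59.3 and 60.1 CPM at 24 h. It rose 1.499-fold after 12 hours (log2 change 0.58, SE 0.0674, edgeR adjusted p of 1.13e-05), just below the fold needed for a call, and 1.53-fold after 24 hours (0.62, SE 0.0671, edgeR adjusted p of 7.61e-06). Replicate 1 was the low library of Bub1 at 0 h.

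The checkpoint effectors are the proteins that bind CDC20. Bub1b (ENSMUSG00000040084.9, chromosome 2, 118598211 to 118641591, plus strand) stood at 76.5, 84.8 and 87.5 CPM at 0 h, 108, 112 and 105 CPM at 12 h, and 119, 114 and 117 CPM at 24 h. The 3 time points did not overlap for Bub1b. It rose 1.31-fold after 12 hours (log2 change 0.38, SE 0.0471, edgeR adjusted p of 1.93e-05) and 1.41-fold after 24 hours (0.49, SE 0.047, edgeR adjusted p of 1.92e-06), with the smallest SE of the 10 genes. Mad2l1 (ENSMUSG00000029910.14, chromosome 6, 66535390 to 66547220, plus strand) stood at 28.4, 27.7 and 32.8 CPM at 0 h, 40.4, 41.5 and 38.4 CPM at 12 h, and 39.9, 42.7 and 44.7 CPM at 24 h. It rose 1.35-fold after 12 hours (log2 change 0.44, SE 0.0654, edgeR adjusted p of 0.000128) and 1.43-fold after 24 hours (0.52, SE 0.0649, edgeR adjusted p of 2.71e-05). Its later libraries overlapped each other but not the 0 h libraries.

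The direct regulators of the APC/C were at the opposite ends of the group. Fbxo5 (ENSMUSG00000019773.7, chromosome 10, 5799160 to 5805600, minus strand), the APC/C inhibitor, had the fewest counts, 191 to 538 per library. It stood at 6.78, 7.10 and 8.39 CPM at 0 h, 13.1, 13.5 and 12.5 CPM at 12 h, and 13.9, 14.7 and 13.7 CPM at 24 h. No library of a time point overlapped with those of another. Fbxo5 rose 1.75-fold after 12 hours (log2 change 0.81, SE 0.0897, edgeR adjusted p of 8.5e-06), which was rank 81 of 11373 genes from the top, and 1.89-fold after 24 hours (0.92, SE 0.0886, edgeR adjusted p of 2.07e-06), rank 60. Cdc20 (ENSMUSG00000006398.15, chromosome 4, 118432901 to 118437352, minus strand), the APC/C activator of mitosis, stood at 68.0, 71.7 and 81.4 CPM at 0 h, 87.9, 101 and 77.8 CPM at 12 h, and 93.3, 94.0 and 100.3 CPM at 24 h. The 12 h libraries of Cdc20 overlapped both other time points. It rose 1.21-fold after 12 hours (log2 change 0.27, SE 0.0773, edgeR adjusted p of 0.016), rank 1012, and 1.30-fold after 24 hours (0.38, SE 0.077, edgeR adjusted p of 0.00238), rank 694.

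The 12 h result of Cdc20 rested on single libraries. Its edgeR adjusted p at 12 h was 0.079 without 0 h replicate 1, 0.0541 without 0 h replicate 2 and 0.0977 without 12 h replicate 2, over a range of 2.77e-07 to 0.0977 in 14 alternatives. At 24 h it passed in all 14. Of the exonic bases of Cdc20, 2.84% overlap Elovl1 on the opposite strand.

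Foxm1 (ENSMUSG00000001517.14, chromosome 6, 128362967 to 128376146, plus strand) stood at 32.8, 39.6 and 38.6 CPM at 0 h, 47.8, 55.5 and 52.3 CPM at 12 h, and 59.5, 58.8 and 60.6 CPM at 24 h. The 3 time points did not overlap. The gene rose 1.396-fold after 12 hours (log2 change 0.48, SE 0.0658, edgeR adjusted p of 5.2e-05) and 1.61-fold after 24 hours (0.69, SE 0.0651, edgeR adjusted p of 1.9e-06). A 2.5% share of its exonic bases overlaps another gene on the same strand.

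**Figure D2:**
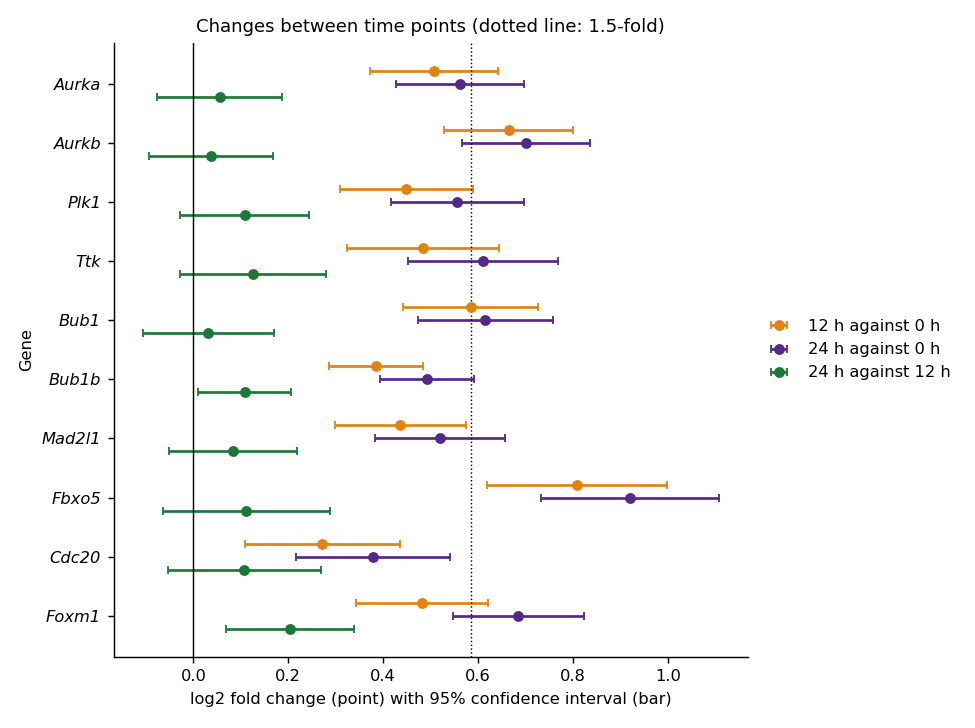
Log2 fold changes (x axis; points) with 95% confidence intervals (bars) for each gene (y axis) in the 3 comparisons of time points, with a dotted line at 1.5-fold. All intervals against 0 h exclude 0, and most reach across the 1.5-fold line, while the 24 h against 12 h intervals of Bub1b and Foxm1 alone exclude 0 before adjustment. Neither gene passed in that comparison after adjustment.

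To determine whether the rise continued after 12 h, the later time points were compared directly. None of the 10 genes passed an adjusted p of 0.05 in edgeR, where 1.97% of all genes passed upward, 3.06% downward and 0.202% were called higher. At an unadjusted p of 0.05, edgeR gave 2 of 10, Bub1b (p 0.0327) and Foxm1 (p 0.0055). The share of all genes at that unadjusted p was not counted here, so this count is no result about the 10 genes. DESeq2 also passed none of the 10 at an adjusted p of 0.05. All 10 estimates were above 0, with log2 fold changes of 0.03 to 0.20 and a median of 0.11, against a median of 0.0023 over all genes. Every 24 h library was above every 12 h library for 4 genes (Ttk, Bub1b, Fbxo5 and Foxm1), compared with 11.4% of all genes. For the comparisons against 0 h the same kind of separation was seen for 9 of 10 genes at 12 h, against 19.9% of all genes, and for 10 of 10 at 24 h, against 17.6%.

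Foxm1 had the largest difference between 12 and 24 h, a log2 fold change of 0.20 (SE 0.0637, 95% confidence interval 0.07 to 0.34, edgeR adjusted p of 0.0769). That adjusted p ranged from 0.00368 to 0.298 over 14 alternatives and was at most 0.05 in 5 of them, among them the fits without 0 h replicate 1 and without 12 h replicate 2. For Aurka the interval of the difference was -0.08 to 0.19, for Aurkb -0.09 to 0.17 and for Bub1 -0.11 to 0.17, so these data leave room for a further rise or a fall of up to about those sizes. Intervals of the remaining genes ran from a lower bound of -0.06 for Fbxo5 to an upper bound of 0.29 for Fbxo5.

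**Figure D3:**
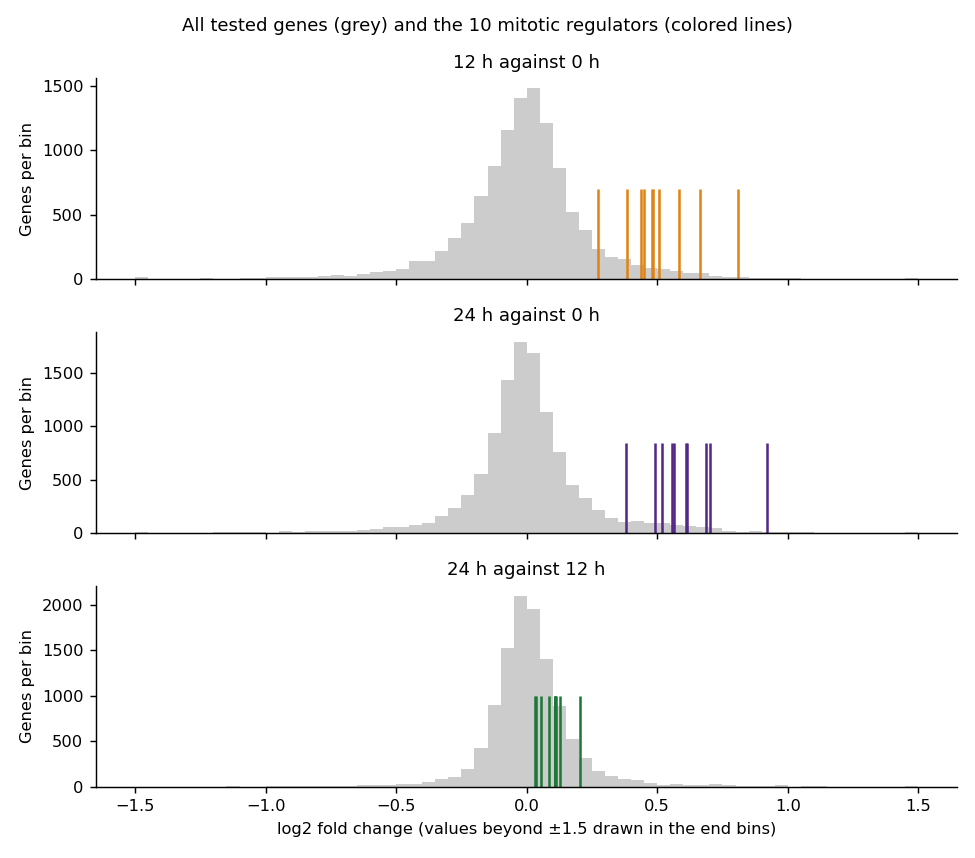
Histograms of the log2 fold changes of all 11373 tested genes (x axis; y axis, genes per bin) in the 3 comparisons, with the 10 mitotic regulators as colored lines. In both comparisons against 0 h the lines lie on the right flank of the distribution, from 0.27 to 0.81 after 12 hours and from 0.38 to 0.92 after 24 hours, and in the comparison of 24 h with 12 h they lie between 0.03 and 0.20, within the body of the histogram.

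The 10 genes also differed between replicates of a time point. On a scale where each gene's log2 CPM was standardised over the 9 libraries, the mean of the 10 genes was -1.61, -1.19 and -0.919 in replicates 1, 2 and 3 at 0 h, 0.253, 0.786 and 0.304 at 12 h, and 0.784, 0.691 and 0.901 at 24 h. The 12 h replicate 2 thus lay within the range of the 24 h libraries. In that library 9 of the 10 genes had their highest 12 h level, and the remaining gene, Bub1, was level with replicate 3. The 0 h replicate 1 was the lowest of its time point for 7 genes (Aurkb, Ttk, Bub1, Bub1b, Fbxo5, Cdc20 and Foxm1) and was also the shallowest library, with 28467089 counts. Without it, 3 genes were called at 24 h (Aurkb, Fbxo5 and Foxm1). Without 0 h replicate 3, 8 were called at 24 h, all except Bub1b and Cdc20. The part of depth in these differences was not tested.

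As a description over the 9 libraries, the Pearson correlation of each gene's log2 CPM with the mean of the other 9 was highest for Bub1b (0.992) and lowest for Cdc20 (0.882), and lay between 0.959 and 0.979 for the other 8. These values are carried largely by the gap between the 0 h and later libraries, and all points share the same library depths. The lower value of Cdc20 goes with its 12 h replicate 3, which was at -0.65 on the standardised scale while the other 9 genes in that library were between 0.22 and 0.66.

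Genes outside the group whose pattern was most like its mean were sought among 8527 genes with at least 10 CPM. The 10 with the highest correlation over 9 libraries were Ccna2 (0.9955), Pimreg (0.9922), Smc4 (0.9919), Stmn1 (0.9917), Hmgb2 (0.9916), Racgap1 (0.9915), Cdk1 (0.9914), Fam83d (0.9902), Hells (0.9901) and Ndc1 (0.9897). Ccna2 encodes cyclin A2 and Cdk1 the kinase it binds at mitotic entry. Of these 10, Fam83d had the largest log2 fold changes, 0.62 at 12 h and 0.81 at 24 h, and Smc4, a condensin subunit, the smallest, 0.36 and 0.46.

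Levels were compared between genes after division by exonic length, as CPM per kb. At 0 h the order was Cdc20 (39.5 ± 3.71 CPM per kb, SD, n = 3), Bub1b (19.4 ± 1.34), Plk1 (15.6 ± 1.14), Aurkb (11.7 ± 1.13), Aurka (10.6 ± 0.45), Bub1 (8.79 ± 1.12), Foxm1 (6.43 ± 0.638), Fbxo5 (3.71 ± 0.426), Mad2l1 (3.53 ± 0.333) and Ttk (3.22 ± 0.27). The same order held at 24 h, where Cdc20 stood at 51.3 ± 2.06 CPM per kb (SD, n = 3) and Ttk at 4.94 ± 0.0885. Neighbours whose libraries overlapped at 0 h were Aurkb and Aurka, Fbxo5 and Mad2l1, and Mad2l1 and Ttk. At 24 h, Fbxo5 (6.84 to 7.33 CPM per kb) had moved clear of Mad2l1 (4.75 to 5.33 CPM per kb). Lengths were summed over all annotated exons of a gene, so a gene with a long, little-used exon is set too low on this scale.

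Opposing partners were then compared as count ratios within a library, which do not depend on scaling between libraries. For the APC/C inhibitor against its activator, the ratio of Fbxo5 to Cdc20 counts was 0.0997, 0.0991 and 0.103 at 0 h, 0.149, 0.133 and 0.161 at 12 h, and 0.149, 0.156 and 0.137 at 24 h. Every later ratio was above every 0 h ratio. The log2 ratio was higher by 0.549 after 12 hours and by 0.547 after 24 hours, each with a two-sided exact permutation p of 0.1, which is the smallest that 3 against 3 libraries allow, and 24 h differed from 12 h by -0.00216 (exact permutation p 0.9). The ratio of Bub1b to Cdc20, a checkpoint effector against its target, was 1.125, 1.183 and 1.075 at 0 h, 1.22, 1.11 and 1.36 at 12 h, and 1.27, 1.22 and 1.17 at 24 h. The time points overlapped, and the log2 ratio differed from 0 h by 0.12 (exact permutation p 0.3) and 0.114 (exact permutation p 0.2). For Aurka to Aurkb the ratio was 0.852, 0.677 and 0.81 at 0 h, 0.664, 0.716 and 0.695 at 12 h, and 0.718, 0.703 and 0.682 at 24 h. Its differences of -0.167 at 12 h (exact permutation p 0.3) and -0.147 at 24 h (exact permutation p 0.4) did not exceed the spread at 0 h, where replicate 2 was low. With 9 such ratio comparisons and no p below 0.1, none could pass an adjustment.

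**Figure D4:**
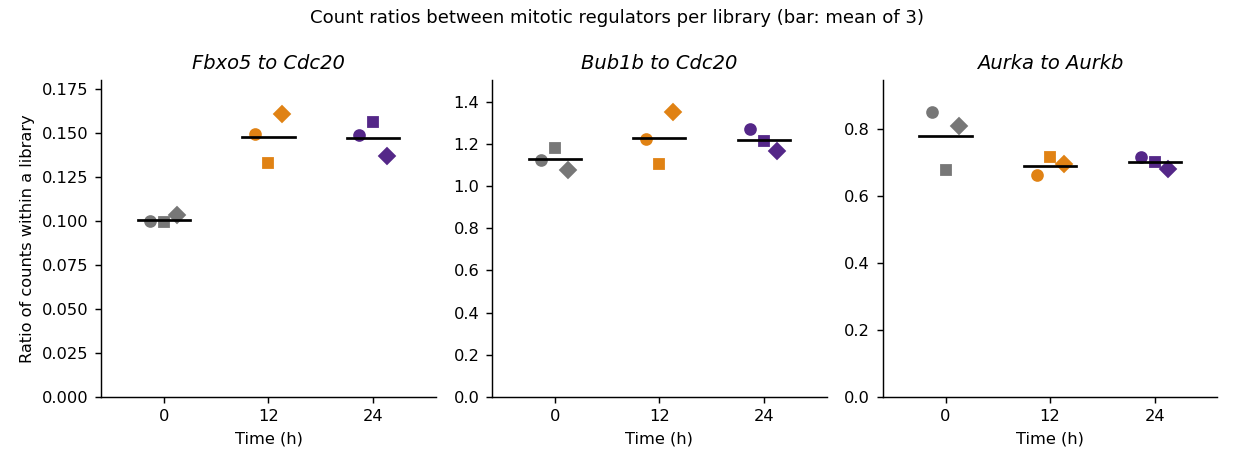
Ratios of counts within each library (y axis, starting at 0) for Fbxo5 to Cdc20, Bub1b to Cdc20 and Aurka to Aurkb against hours after NRG1 (x axis), with circles, squares and diamonds for replicates 1, 2 and 3 and a bar for the mean of 3. The Fbxo5 to Cdc20 ratio lies at 0.0991 to 0.103 at 0 h and at 0.133 to 0.161 later, while the time points overlap in the other panels.

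The partners of these proteins were examined next, as lists written from general knowledge. In the counts of each list, a gene that rose is one that passed upward. Over all genes, 13.6% passed upward at 12 h and 9.67% at 24 h. Of 12 kinetochore checkpoint partners, 10 rose at 12 h and 9 at 24 h, with none lower. Trip13, the ATPase that remodels MAD2, rose from 12.4 ± 0.886 CPM (SD, n = 3) at 0 h to 20.2 ± 1.95 after 12 hours and 19.97 ± 0.929 at 24 h (log2 fold changes 0.70 and 0.69, edgeR adjusted p of 1.21e-05 and 1.57e-05). Ndc80, the kinetochore subunit that binds microtubules, rose by 0.66 on the log2 scale after 12 hours (edgeR adjusted p of 2.33e-06), and Spdl1, which recruits dynein to kinetochores, by 0.71 after 24 hours (edgeR adjusted p of 1.23e-06). The median log2 fold change of the list was 0.44 at 12 h and 0.56 at 24 h, close to the medians of the 10 regulators.

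Of 11 partners of Aurora B, Aurora A and PLK1 and other mitotic kinases, 10 rose at 12 h and 11 at 24 h. Incenp, the scaffold that activates Aurora B, went from 80.5 ± 4.80 CPM (SD, n = 3) to 125 ± 2.68 after 12 hours and 133 ± 2.5 at 24 h, with log2 fold changes of 0.63 (edgeR adjusted p of 1.44e-07) and 0.72 (edgeR adjusted p of 3.21e-08). Pbk, a mitotic kinase, rose by 0.65 on the log2 scale after 12 hours (edgeR adjusted p of 5.17e-06) and Melk, another kinase of proliferating cells, by 0.72 after 24 hours (edgeR adjusted p of 5.53e-05).

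Changes in the transcripts of the core subunits of the ligase were small. Among the 14 core subunits of the APC/C, the median log2 fold change was 0.03 at 12 h and 0.02 at 24 h. Estimates were below 0 for 3 of them at 12 h and 6 at 24 h. Of the 14, 1 passed higher at 12 h and 2 at 24 h, and none passed lower. These counts are near the shares of all genes that passed upward, 13.6% and 9.67%, so they are no result about the core subunits as a list. Of the single subunits, Anapc11, the RING subunit, rose by 0.15 on the log2 scale after 12 hours (63.7 ± 1.203 to 70.6 ± 1.18 CPM, SD, n = 3, edgeR adjusted p of 0.0104) and by 0.12 after 24 hours (edgeR adjusted p of 0.0479, above 0.05 in 11 of 14 alternatives). Anapc7 rose by 0.16 after 24 hours (edgeR adjusted p of 0.0189, but 0.0772 without 0 h replicate 1 and 0.0889 without 24 h replicate 1). The 24 h count of 2 was 0 without 0 h replicate 1, 3 without 12 h replicate 3, and 1 with any other single library left out except 12 h replicate 2. Without 12 h replicate 3, 1 subunit also passed lower at 24 h. The range of the 14 subunits, -0.06 to 0.27 after 12 hours and -0.15 to 0.17 after 24 hours, lay below the smallest change among the 10 regulators at 24 h, and at 12 h its top, Anapc15, was level with Cdc20. Anapc15, chosen after its values were seen, did not pass (edgeR adjusted p of 0.0698), and 38.4% of its exonic bases overlap another gene.

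Factors that work with the APC/C were taken next. Of the coactivator Cdh1 (Fzr1) and 3 E2 enzymes, 3 of 4 rose at 12 h and 3 of 4 at 24 h, the exception being Ube2d1, an E2 with many other uses (log2 fold changes 0.0191 and -0.00231, chosen after its values were seen). Fzr1 rose by 0.34 on the log2 scale after 12 hours (42.3 ± 1.78 to 53.7 ± 2.40 CPM, SD, n = 3, edgeR adjusted p of 6.55e-05). Ube2c, the E2 that primes APC/C substrates, rose by 0.28 after 12 hours (edgeR adjusted p of 0.000972) and by 0.48 after 24 hours (edgeR adjusted p of 8.45e-06), with 22.8% of its exonic bases overlapping Tnnc2 on the opposite strand. Ube2s, the E2 that extends the chains, rose by 0.42 after 24 hours (edgeR adjusted p of 4.75e-06).

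Of 8 APC/C substrates, 6 rose at 12 h and 7 at 24 h. Ccna2 went from 79.3 ± 5.39 CPM (SD, n = 3) to 114 ± 7.35 and 126 ± 2.65, with log2 fold changes of 0.52 (edgeR adjusted p of 3.72e-06) and 0.67 (edgeR adjusted p of 3.43e-07). It overlaps Exosc9 on the opposite strand over 12.5% of its exonic bases. Kif22, a chromosome-arm kinesin, rose by 0.52 on the log2 scale after 12 hours (edgeR adjusted p of 8.73e-05), and Anln, which encodes the cytokinesis protein anillin, by 0.60 after 24 hours (edgeR adjusted p of 4.19e-07). Pttg1, which encodes securin, had log2 fold changes of -0.04 and 0.08 and did not pass at either time. It was chosen after its values were seen.

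FOXM1 acts with the B-MYB and MuvB proteins. Of their 6 genes, 3 rose at 12 h and 3 at 24 h. Mybl2, which encodes B-MYB, rose from 24.2 ± 1.67 CPM (SD, n = 3) to 43.2 ± 2.53 after 12 hours (log2 change 0.83, edgeR adjusted p of 1.85e-07) and stood at 37.8 ± 1.84 at 24 h (0.64, edgeR adjusted p of 2.4e-06). Lin54, the MuvB subunit that binds the CHR, rose by 0.39 after 12 hours (edgeR adjusted p of 0.00106) and 0.63 at 24 h (edgeR adjusted p of 1.4e-05). All 12 of the other known FOXM1 targets in mitosis rose at 12 h and all 12 at 24 h, with median log2 fold changes of 0.34 and 0.52. Top2a, the topoisomerase that untangles sister chromatids, rose by 0.54 and 0.68 (edgeR adjusted p of 6.19e-06 and 6.83e-07). Hmmr rose by 0.53 after 12 hours (edgeR adjusted p of 4.43e-05), and Kif11, the spindle motor, by 0.66 after 24 hours (edgeR adjusted p of 3.27e-06). The 12 h count of 12 was 9 without 0 h replicate 1.

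Between 12 and 24 h, 2 of these 12 targets rose further, against 1.97% of all genes passing upward. Cenpf, a kinetochore protein, went from 64.9 ± 7.20 to 79.9 ± 4.31 CPM (SD, n = 3), a log2 fold change of 0.30 (edgeR adjusted p of 0.0249), and Kif2c, a kinesin that depolymerizes microtubules, from 44.4 ± 2.64 to 50.4 ± 1.09 CPM, a change of 0.18 (edgeR adjusted p of 0.0487). Ube2c rose by 0.20 (edgeR adjusted p of 0.0373) over the same interval. Ube2c no longer passed without 12 h replicate 1 or with any of the 24 h libraries left out (edgeR adjusted p of 0.0538 to 0.187). The count of 2 targets was 0 without 12 h replicate 1, 24 h replicate 2 or 24 h replicate 3, and 1 without 0 h replicate 3, 12 h replicate 2 or 24 h replicate 1.

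Brakes on mitotic entry and exit phosphatases were mixed. Of 8 genes, 3 rose at 12 h and 4 at 24 h, and the median log2 fold change was 0.11 at both. Wee1, the kinase that restrains CDK1, rose from 17.5 ± 0.821 CPM (SD, n = 3) to 26.1 ± 2.42 and 28.95 ± 0.668, by 0.57 (edgeR adjusted p of 1.9e-05) and 0.72 (edgeR adjusted p of 1.93e-06). Pkmyt1, a kinase with the same target, rose by 0.38 after 12 hours (edgeR adjusted p of 0.0111) and 0.47 at 24 h (edgeR adjusted p of 0.00351). At 12 h Pkmyt1 no longer passed without 0 h replicate 1 (log2 fold change 0.27) or without 12 h replicate 2 (0.26). The 24 h count of 4 was 2 without 0 h replicate 2, 24 h replicate 1 or 24 h replicate 2.

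For comparison with an earlier phase of the cycle, 14 replication genes of late G1 and S phase were taken. Of these, 13 rose at 12 h and 12 at 24 h, with median log2 fold changes of 0.55 and 0.52. Cdc6, a licensing factor, rose by 0.77 after 12 hours (edgeR adjusted p of 9.16e-06), and Mcm4, a helicase subunit, by 0.62 after 24 hours (edgeR adjusted p of 1.77e-05). Rrm2, which encodes a ribonucleotide reductase subunit, went from 192 ± 11.5 CPM (SD, n = 3) to 321 ± 23.0 and 313 ± 14.3 (0.74 and 0.71, edgeR adjusted p of 1.44e-07 and 2.94e-07). The estimates at 24 h against 12 h were below 0 for 12 of these 14 genes (median -0.05), whereas they were above 0 for all 10 mitotic regulators (median 0.11). The difference between the sets was not tested.

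Of the PLK and Aurora genes outside the group, Plk3 and Plk4 could be tested, Aurkc had too few counts, and Plk2 was not analysed here. Plk4, the kinase of centriole duplication, stood at 27.4 ± 3.53 CPM (SD, n = 3) at 0 h, 43.4 ± 1.88 at 12 h and 45.4 ± 2.20 at 24 h, rising by 0.65 (edgeR adjusted p of 8.6e-06) and 0.72 (edgeR adjusted p of 3.27e-06) on the log2 scale. Plk3, a stress-responsive relative, stood at 27.0, 28.6 and 27.8 CPM in the 3 libraries at 0 h and at 45.8, 46.8 and 80.1 CPM at 12 h, with 39.7 ± 4.22 CPM at 24 h. It rose by 1.04 after 12 hours (edgeR adjusted p of 0.000109) and by 0.51 after 24 hours (edgeR adjusted p of 0.0312). It fell by 0.53 on the log2 scale from 12 to 24 h (edgeR adjusted p of 0.0494), a direction opposite to the estimates of the 10 regulators. At 24 h Plk3 no longer passed with any of the 0 h libraries left out, nor without 24 h replicate 2 or 24 h replicate 3 (edgeR adjusted p of 0.0611 to 0.119), and its fall no longer passed with any of the 0 h or 24 h libraries left out (0.0569 to 0.167). With DESeq2 neither passed, at log2 fold changes of 0.52 (DESeq2 adjusted p 0.136) at 24 h against 0 h and -0.53 (DESeq2 adjusted p 0.186) at 24 h against 12 h, and the fall did not pass in edgeR with only the 6 libraries compared (adjusted p 0.0776). The 12 h replicate 3 carried much of the peak: without it the log2 fold change of Plk3 was 0.74 at 12 h against 0 h and -0.23 at 24 h against 12 h.

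**Figure D5:**
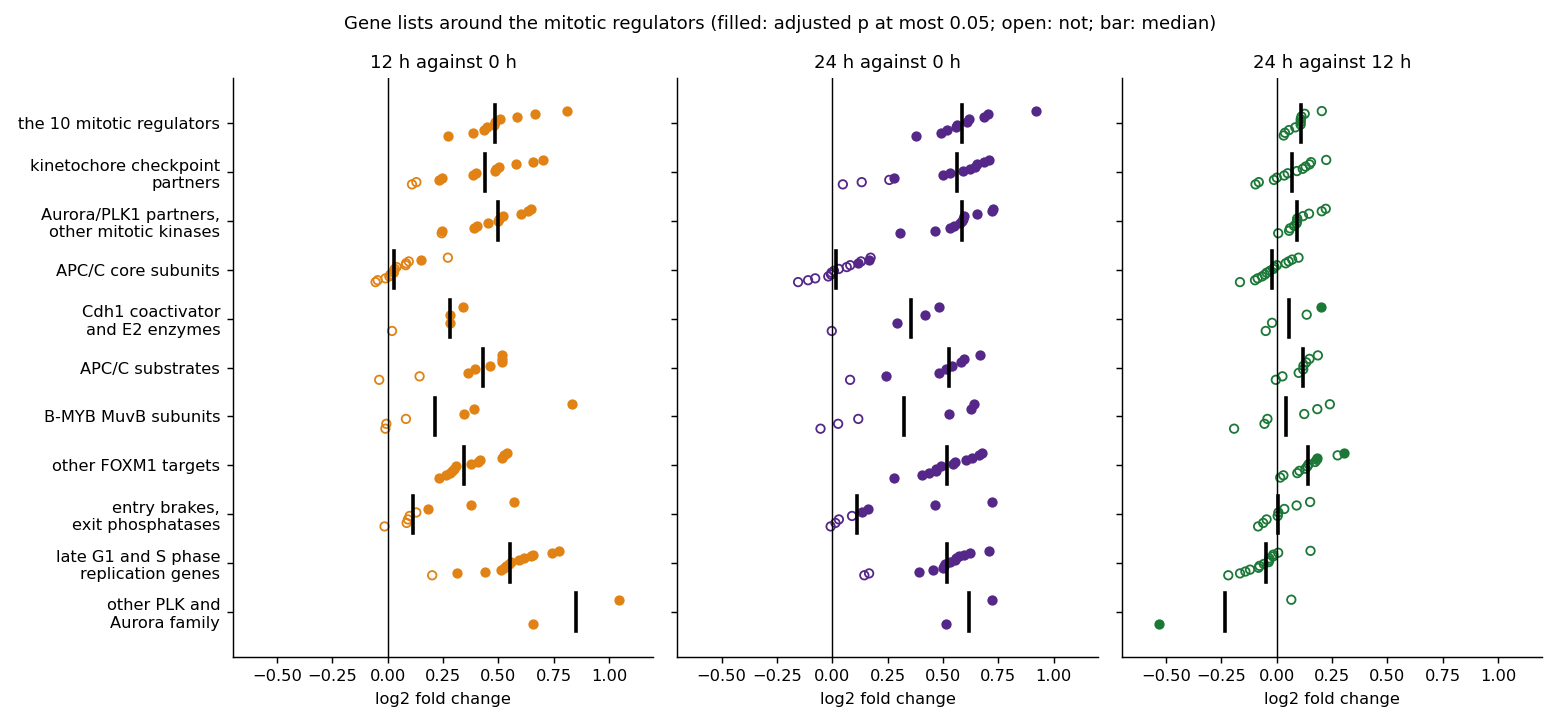
Log2 fold changes (x axis) of single genes in the 10 mitotic regulators and 10 related gene lists (y axis) in the 3 comparisons, with filled points for genes at an adjusted p of at most 0.05, open points for the others and bars for the list medians. The regulators, their partners and the FOXM1 targets lie to the right of 0 against 0 h, the 14 APC/C core subunits lie around 0 (medians 0.03 and 0.02), and few points are filled between 12 and 24 h.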

How the data were processed

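RNA-Seq of 9 mRNA libraries used paired-end 150 bp reads. The authors trimmed reads with Cutadapt, aligned them with STAR to GRCm38.p6 and counted them per gene with featureCounts against a GENCODE annotation. The authors deposited raw counts per gene, without normalization. Use of strand and of reads matching several genes was not given in the sources used here. Groups follow the time in the labels.

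From these counts, genes were filtered with filterByExpr and scaled by TMM in edgeR 4.0.16 (R 4.3.3), the 9 libraries were fitted together, and each pair of time points was tested with the quasi-likelihood F-test, adjusted over all 11373 genes. CPM are TMM-scaled, and log2 CPM used a prior count of 2. On simulated counts (12 h against 0 h, 11303 genes), edgeR passed 174 of 200 changed genes with 6 false passes.

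The genes and lists were chosen with earlier results of these data known. All 10 regulators were reported. Each list named up to 2 passing genes per comparison with the largest absolute change, and the 10 most similar genes were taken by Pearson correlation. Overlaps of exons came from GENCODE M21, and promoters from RefSeq. Alternatives were DESeq2 1.42.0, total-count scaling, no filter, only the 6 libraries compared, a replicate block, glmTreat and each library left out.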

Additional observations from a re-analysis of the deposited data

Results flagged for a closer look

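Because both comparisons against 0 h share the same libraries, the test of 24 h against 12 h is also the test of whether the effects at 12 and 24 h differ. In edgeR, 4 of the named genes passed it at an adjusted p of 0.05. The log2 fold change at 24 h against 12 h was 0.20 for Ube2c (adjusted p 0.0373, at most 0.05 in 10 of 14 alternatives), 0.30 for Cenpf (adjusted p 0.0249, 10 of 14), 0.18 for Kif2c (adjusted p 0.0487, 7 of 14) and -0.53 for Plk3 (adjusted p 0.0494, 6 of 14). For Plk3 the estimate was -0.23 without 12 h replicate 3, which stood at 80.1 CPM against 45.8 and 46.8 CPM in the other 12 h libraries. None of the 10 mitotic regulators was among these genes.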

How the results depend on the processing

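All 10 regulators kept their direction against 0 h in each of the 14 alternatives, and Cdc20 at 12 h was the only one to lose its adjusted p of 0.05, in 3 of them. Leaving out each library gave 9 to 10 passing genes at 12 h and 10 at 24 h, 2 to 3 called genes at 12 h and 3 to 8 at 24 h (3 without 0 h replicate 1, 8 without 0 h replicate 3). Asked whether the change exceeded 1.5-fold (glmTreat), 0 were called at 12 h and 0 at 24 h, since that test asks for more than a difference from 0. Between 12 and 24 h, 1 gene, Foxm1, passed without a filter on low counts, with only the 6 libraries compared and with the replicate block, and 0 to 1 passed when single libraries were left out (1 without 0 h replicate 1 or 12 h replicate 2). The count over the related lists for this comparison was 4, with 16 without the filter and 0 to 11 when single libraries were left out (0 without 24 h replicate 2 or 24 h replicate 3, 11 without 12 h replicate 3). The cause of these shifts was not tested.

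No pairing of libraries by replicate number was evident, though 3 libraries per time point cannot exclude it. Residuals of same-numbered libraries correlated at -0.0744 to 0.131 over 9 pairs, 1 above 0.1, against -0.125 to 0.12 for other pairs. With the replicate block, 3 regulators were called at 12 h (Bub1 in addition, as with DESeq2 and without the filter) and 5 at 24 h.

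Ratio differences between 12 and 24 h changed sign when libraries were left out. Fbxo5 to Cdc20 went from -0.00216 to 0.0508 without 24 h replicate 3, 0.00698 without 12 h replicate 1 and 0.0612 without 12 h replicate 3 (range -0.0747 to 0.0612). Bub1b to Cdc20 went from -0.00622 to 0.0238 without 24 h replicate 3 and 0.0669 without 12 h replicate 3 (range -0.0792 to 0.0669), and Aurka to Aurkb from 0.0204 to -0.0087 without 12 h replicate 1 (range -0.0087 to 0.0457).

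The rarest of the 10 regulators, Fbxo5, had 191 counts in its lowest library, and 3 libraries per time point limit the precision of differences near 0.1 on the log2 scale. Protein levels and the share of cells in mitosis were not measured here.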
